A study of Mus musculus with 12 samples.

Results

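The distal part of mouse chromosome 2, up to the last probe of the chromosome, was followed in 12 liver tumors by array-based comparative genomic hybridization (aCGH), which compares the amount of DNA at many positions between a tumor and a reference tissue. Its members were the 960 probes, of 42235 with a position on the array, that start beyond a limit set on chromosome 2 between the probes ending at 134796953 and starting at 135166003 (build mm8, NCBI36). They reached to 181797594, a stretch of 46.6 Mb with 480 gene names. The tumors came from Mdr2-KO/FVB mice, which lack the phospholipid transporter of the bile canaliculus (Abcb4) on the FVB strain background in both groups and develop chronic liver inflammation followed by hepatocellular carcinoma. The post-PHx group held 6 tumors (4 from males and 2 from females) of mice that underwent 70% partial hepatectomy (PHx) at 3 or 6 months of age and were killed at 9 months. The spontaneous group held 6 tumors of untreated mice, 2 from males aged 14 months and 4 from females aged 13 months, so group, age and sex were not balanced. By the labels and methods, each array compared Cy5-labelled DNA of 1 tumor with Cy3-labelled DNA of non-tumor liver taken away from the tumor in that mouse, and no array repeated a tumor or swapped the dyes. All values below are log2 ratios of tumor over non-tumor liver, centred so that the median autosomal probe of each array is 0. The stretch was chosen on these same ratios, so its levels are a description and carry no test. The number of arrays, 12, limits the precision, and on an array the share of cells that carry a gain cannot be told apart from the number of extra copies in each.

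Distal chromosome 2 of the mouse carries genes whose human counterparts lie on both arms of a chromosome, of which the long arm is often gained in carcinomas. Among its genes are Foxa2 and Hnf4a, which encode transcription factors that establish and maintain hepatocytes, E2f1, Mybl2, Tpx2 and Aurka, which act in the cell cycle and mitosis, and Src, Ncoa3 and Gnas, which transmit growth signals. A gain of DNA raises the number of gene copies, and aCGH shows that number and not the activity of the genes. If every cell of a tumor had 3 copies in place of 2, a log2 ratio of 0.58 would be expected from the copies alone.

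The stretch also carries microRNAs, short RNAs that pair with messenger RNAs mainly through bases 2 to 8, the seed. RefSeq (GRCm38.p6) placed 14 microRNA hairpins of the stretch between genes that the array measured, and their 23 mature forms had 23 different seeds. The 4 pairs of arms below are shown to set both sides of an edge of the gains against each other, 3 of them in the part that was gained in all 4 gained tumors (miR-499 between Gss and Trpc4ap, miR-5622 within Tpx2 and miR-7003 within Mybl2) and 1 in the part that was gained in 3 of them (miR-296, between Npepl1 and Gnas). Bases 2 to 8 are in capitals.
mmu-miR-499-5p: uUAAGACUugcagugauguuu
mmu-miR-499-3p: gAACAUCAcagcaagucugugcu
mmu-miR-5622-5p: uUCACCACacccagcuuaaaga
mmu-miR-5622-3p: cUUAGCUGgguagugguggugc
mmu-miR-7003-5p: uGUGGGGAgaagcugcggcag
mmu-miR-7003-3p: cCCCGGGUuuuccccacag
mmu-miR-296-5p: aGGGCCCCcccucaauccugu
mmu-miR-296-3p: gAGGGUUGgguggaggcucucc

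On 3 arrays of the same slide, isolated probes of the stretch stood far from their neighbours. Spon3F had 50 probes at or below -0.8 (5.26%, against 4.26% of its autosomal probes) and Spon1M had 20 (2.09%, against 1.25%), whereas Spon2M had 21 at or above 0.8 (2.19%, against 2.05%). Of the 20 low probes of Spon1M, 18 (90%) were among the 50 of Spon3F (36% of these), and 16 (80%) were among the 21 high probes of Spon2M (76.2% of these). The 14 probes with all 3 deviations, in Ankrd5, Btbd3, Pax1, Zfp341, Map1lc3a, Gdf5, Prkcbp1, Bmp7, Th1l, Phactr3 and 4 other gene names, were at -2.82 to -0.91 in Spon1M, at -3.41 to -0.84 in Spon3F and at 0.91 to 2.94 in Spon2M, and at -0.43 to 0.67 on the other 9 arrays. Against the median of the other 9 arrays, the deviation lay mainly in the tumor channel of Spon1M (median of the 14 probes -2.04, non-tumor channel -0.0027) and Spon3F (-2.77, non-tumor channel -0.20), and in the non-tumor channel of Spon2M (-2.01, tumor channel -0.099). The non-tumor channel was also at or below -0.8 at 2 of the 14 probes in Spon1M (lowest -1.30) and at 4 in Spon3F (lowest -2.51). The pattern was not limited to chromosome 2, since 377 autosomal probes had all 3 deviations, and of the 505 low autosomal probes of Spon1M 84.4% were low in Spon3F and 86.7% high in Spon2M. Whether the tumor and liver DNA on these 3 arrays came from the same mouse, as labelled, was not tested, and values without the 14 probes are given where they matter.

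**Figure D1:**
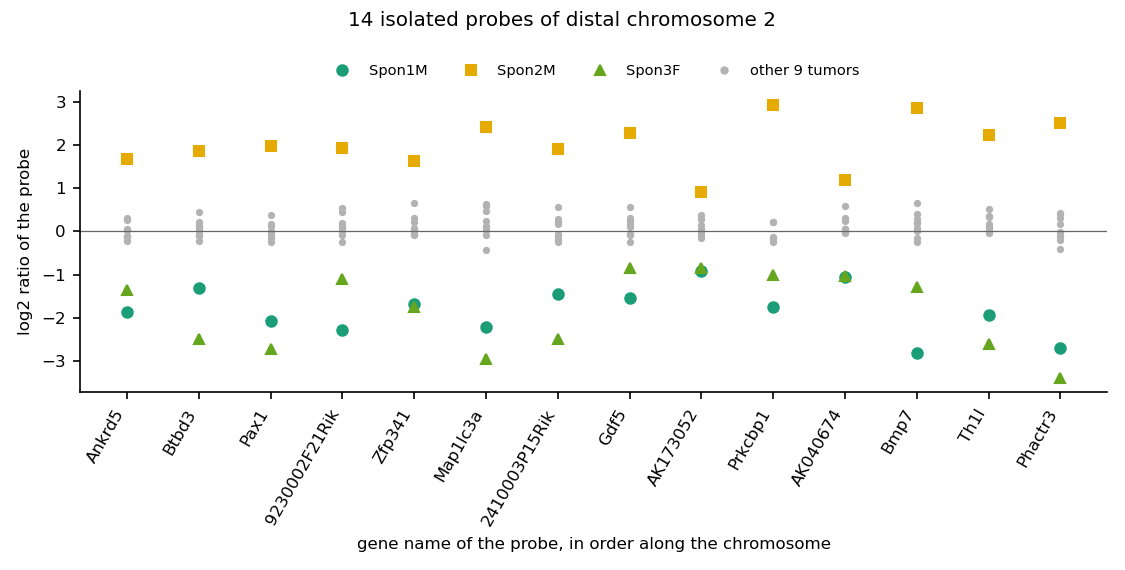
Log2 ratio (y axis) of the 14 isolated probes of distal chromosome 2, named by gene along the x axis, with Spon1M as circles, Spon2M as squares, Spon3F as triangles and the other 9 tumors as gray points. Each probe was at or below -0.84 in Spon1M and Spon3F and at or above 0.91 in Spon2M, while the gray points lay between -0.43 and 0.67.

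Distal chromosome 2 was gained in 4 of the 12 tumors, 2 in each group, where a gain is an interval at least 0.2 above the rest of the chromosome that holds at least 50% of the probes of the stretch. Over the whole stretch the post-PHx tumors had mean log2 ratios of 0.59 (PHx4M), 0.40 (PHx3M), 0.021 (PHx1M), 0.0038 (PHx6F), -0.028 (PHx2F) and -0.074 (PHx5M). The spontaneous tumors had means of 0.25 (Spon5F), 0.22 (Spon1M), -0.0079 (Spon6F), -0.0080 (Spon2M), -0.068 (Spon4F) and -0.077 (Spon3F). PHx3M, PHx4M, Spon1M and Spon5F thus stood apart, and the other 8 tumors lay between -0.077 and 0.021. Without the 14 isolated probes the mean was 0.25 in Spon1M, -0.050 in Spon3F and -0.038 in Spon2M. On a linear scale the whole gains of PHx3M, PHx4M, Spon1M and Spon5F had 1.32, 1.54, 1.31 and 1.17 times the signal of non-tumor liver. Chromosome 2 ahead of the stretch was at 0.023, 0.025, -0.037 and 0.13 in the same order.

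**Figure D2:**
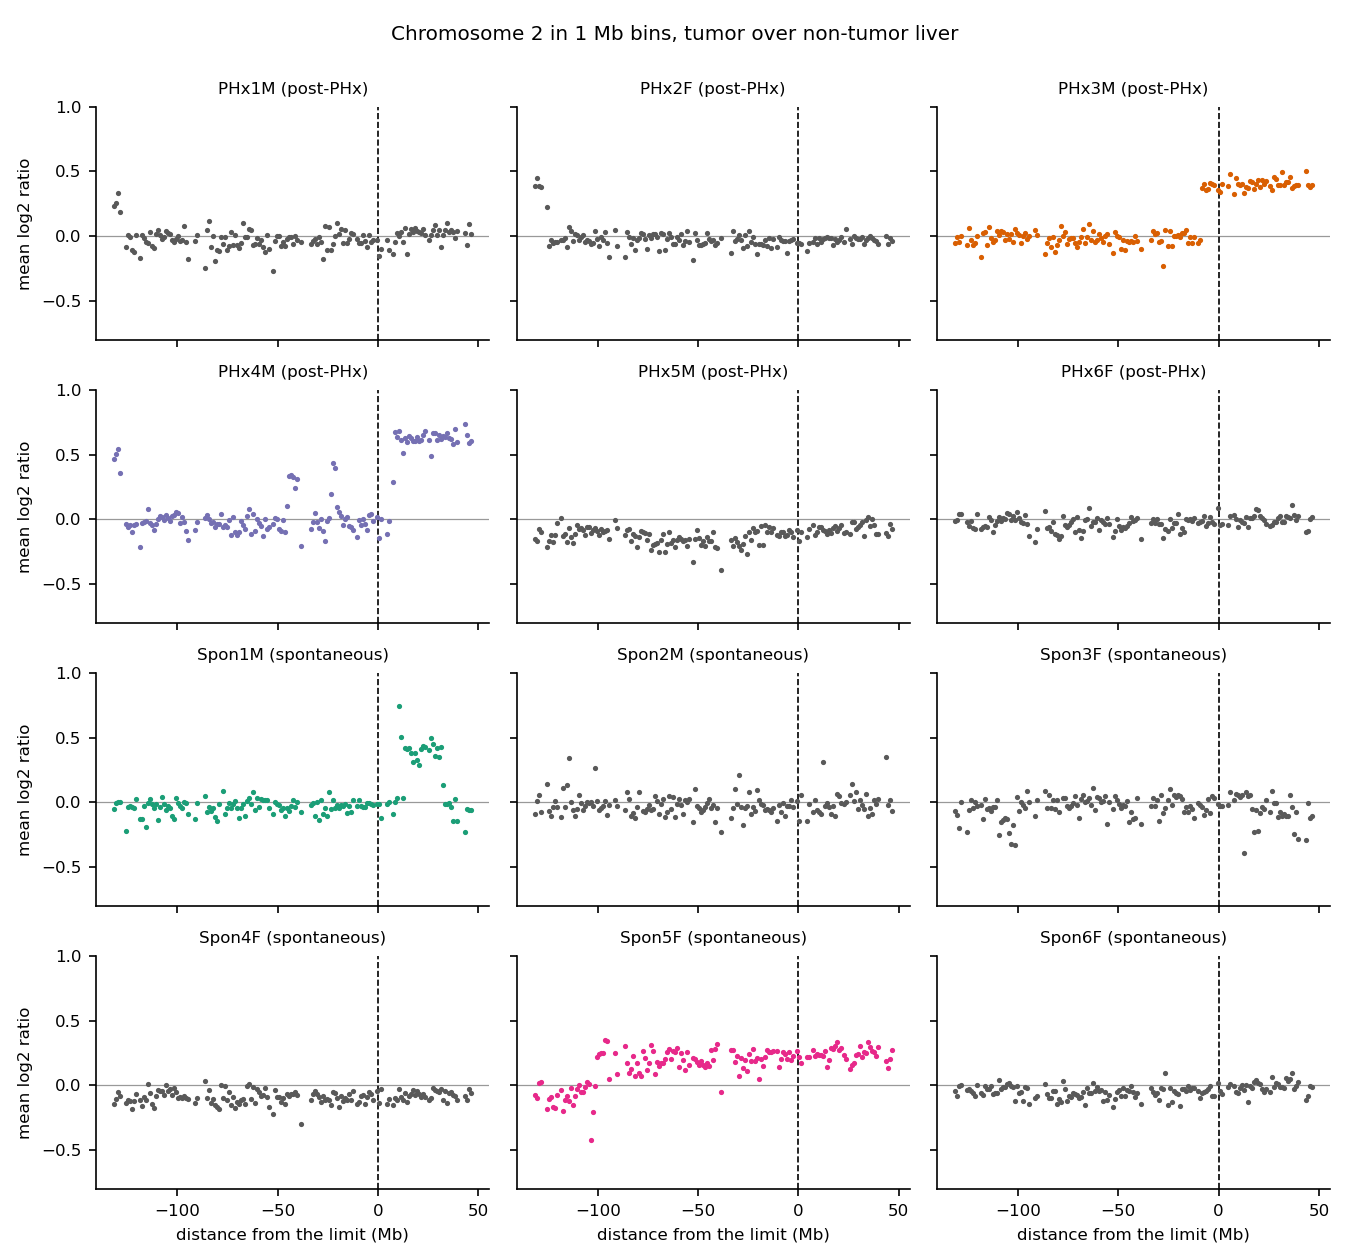
Mean log2 ratio (y axis) of each 1 Mb bin with at least 3 probes along chromosome 2 in each of the 12 tumors, plotted by distance in Mb from the limit of the stretch (dashed line). The 4 gained tumors are in color. PHx3M stepped up before the limit and PHx4M after it, Spon1M was gained over an inner part alone, and Spon5F was gained over most of the chromosome. PHx4M also had high bins far ahead of the limit, and PHx1M, PHx2F and PHx4M were raised at the start of the chromosome.

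The 4 gains had different lengths. In PHx3M the gain ran from 126270358, at Slc27a2, a fatty acid transporter of the liver, to the last probe of the chromosome, with 1168 probes at a mean of 0.40 and the rest of the chromosome at -0.017. The 5 probes before its start averaged -0.14 and the 5 after it 0.43, so the edge was sharp. In PHx4M it ran from 142819528, just beyond Otor, to the last probe (886 probes, 0.63, rest of the chromosome 0.024). The 5 probes before this start, in Kif16b, Snrpb2 and Otor, averaged 0.21 against 0.61 for the 5 after it, an intermediate level. The rest of the chromosome was not flat in PHx4M. It held an amplified region at chr2:3104269-6608791 (81 probes, 0.48, by the region rule given below). Bins of 1 Mb were also high from 90 and 91 Mb (0.34 each) and from 112 and 113 Mb (0.44 and 0.40). In Spon5F the gain ran from 34682752, at Psmd5, a proteasome assembly chaperone, to the last probe (2811 probes, 0.23, rest of the chromosome -0.079). Distal chromosome 2 was thus the end of a gain of 147 Mb. That rest included chr2:31261370-32419329, which the same region rule called deleted (53 probes, -0.45). In Spon1M alone the gain was interstitial, at chr2:144881216-167392128 (596 probes, 0.39, rest of the chromosome -0.040). It ended between neighbouring probes of the transcript AK040674, ahead of Ptpn1, a phosphatase that dampens insulin signalling. The 5 probes up to that end averaged 0.40, the 5 beyond it had a median of -0.061, and the first of these was one of the 14 isolated probes.

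The start lay at exactly these probes within the 95% support limits in PHx3M and Spon1M, between 142762279 and 142819528 in PHx4M, and between 34479540 and 34698829 in Spon5F. The limit of the stretch was not an edge in any gained tumor. The 5 probes just outside it, in Txndc13, Plcb1 and 1 unnamed position, averaged 0.35 in PHx3M, -0.042 in PHx4M, 0.37 in Spon5F and 0.0073 in Spon1M. The 5 just inside, in AK049057, AK080865 and Plcb4, averaged 0.34, -0.11, 0.39 and 0.030 in the same order.

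These edges divided the stretch into 4 compartments. Compartment A, chr2:135166003-142772690, held 62 probes and 26 gene names, among them Jag1, a ligand of Notch receptors. Compartment B, chr2:142819528-144550872, held 41 probes. Compartment C, chr2:144881216-167392128, was covered by all 4 gains and held 601 probes and 312 gene names over 22.5 Mb. Compartment D, chr2:167417430-181797594, held 256 probes and 126 gene names over 14.4 Mb. In A, the mean was 0.38 in PHx3M and 0.22 in Spon5F, and -0.034 in PHx4M and -0.066 in Spon1M. The value of Spon1M includes the isolated probes of Ankrd5 (-1.86) and Btbd3 (-1.30). In B it was 0.42, 0.22, 0.65 and -0.029 for PHx3M, Spon5F, PHx4M and Spon1M. In C all 4 gained tumors were high, at 0.41 in PHx3M, 0.63 in PHx4M, 0.25 in Spon5F and 0.39 in Spon1M, while the other 8 lay between -0.071 and 0.029. In D the values were 0.40, 0.62 and 0.24 in PHx3M, PHx4M and Spon5F, and -0.068 in Spon1M (-0.036 without the 4 isolated probes there). The last 10 Mb of the chromosome, with 200 probes, held the same picture, and the other 8 tumors lay between -0.14 and 0.032 there.

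**Figure D3:**
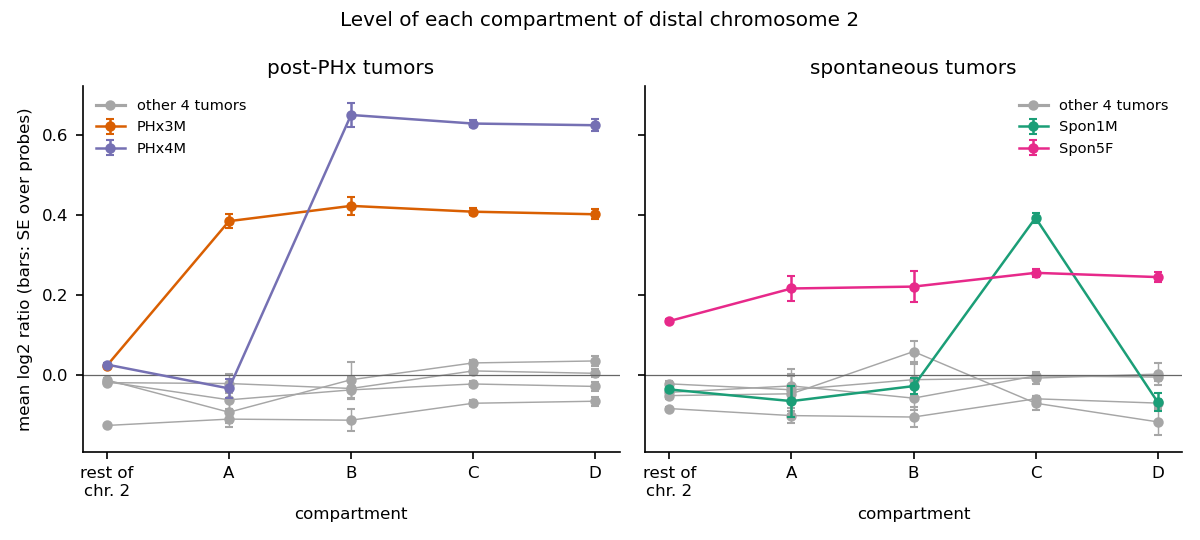
Mean log2 ratio (y axis) of the rest of chromosome 2 and of compartments A to D (x axis) in each post-PHx tumor (left) and each spontaneous tumor (right), with bars for the standard error over probes. Gained tumors are in color and the other 4 of each group in gray. All 4 gained tumors were high in C alone, and Spon1M returned to -0.068 in D.

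Within the gains, the level varied most along Spon1M. Over the 21 bins of 1 Mb that lay whole in C, the SD was 0.036 in PHx3M (lowest bin 0.33, highest 0.49), 0.048 in PHx4M (0.49 to 0.68) and 0.055 in Spon5F (0.13 to 0.33), and 0.13 in Spon1M (0.031 to 0.75). Without the isolated probes, 1 of which (Pax1) lies in the lowest bin, the SD in Spon1M was 0.082 (0.35 to 0.75). In Spon1M the first 1.23 Mb of the gain, chr2:144881216-146116133, was higher than what followed. Its 25 probes averaged 0.77, against 0.38 for the rest of C (0.41 without the isolated probes), and the step was not shared: the same probes differed from the rest of C by 0.0011 in PHx3M, 0.064 in PHx4M and -0.00043 in Spon5F. The last 5 probes of the higher part averaged 0.83 and the next 5 averaged 0.49. The genes of the higher part included Slc24a3, a sodium/potassium/calcium exchanger, at 0.78 in Spon1M, Rin2, a regulator of Rab5, at 0.73, Nat5, a subunit of an N-terminal acetyltransferase, at 0.68, and Crnkl1, a splicing factor, at 0.55. In PHx4M the same genes were at 0.89, 0.64, 0.51 and 0.58. The higher part was found in these values, so its difference carries no test.

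**Figure D4:**
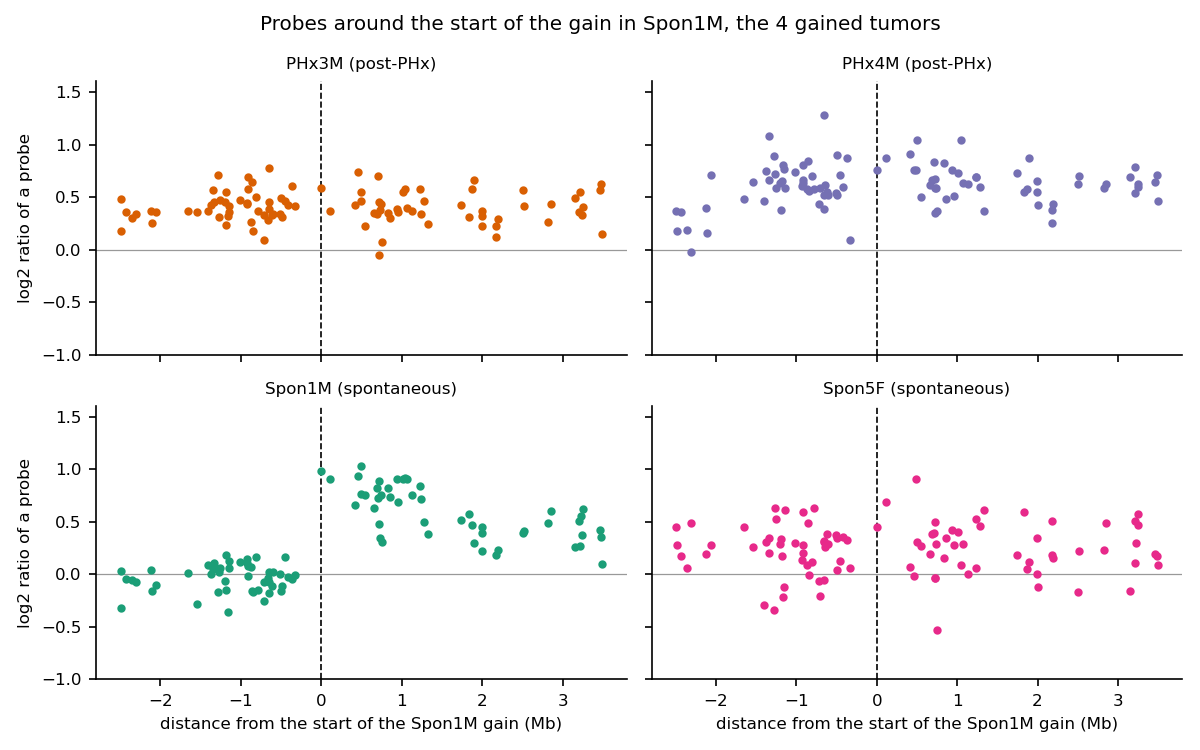
Log2 ratio of single probes (y axis) by distance in Mb from the start of the gain in Spon1M (dashed line) in the 4 gained tumors. In Spon1M the probes stepped from near 0 to a mean of 0.77 and then to a lower level, while PHx3M, PHx4M and Spon5F were already high before the line. 1 probe of Spon1M, in Pax1, lies below the axis at -2.08.

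The channels were also read apart. In C, the red (tumor) signal minus that of the rest of chromosome 2 was 0.49 in PHx3M, 0.67 in PHx4M, 0.23 in Spon5F and 0.50 in Spon1M on the log2 scale, and 0.052 to 0.13 in the other 8 tumors. The green (non-tumor liver) signal differed by 0.054 to 0.11 on all 12 arrays. In D the red difference was 0.34, 0.52 and 0.15 in PHx3M, PHx4M and Spon5F, and -0.019 in Spon1M. In C, the green values of PHx4M (0.071) and Spon1M (0.068) lay among those of the other 8 (0.054 to 0.096), and those of PHx3M and Spon5F, both 0.11, lay above them. In A the green value of PHx3M, 0.13, was above the other 8 (-0.051 to 0.081), and in D that of PHx4M, -0.077, was below them (-0.040 to 0.040) and that of Spon5F, 0.041, just above. For Spon5F these differences are small, because most of the chromosome it is set against was gained too, and in A its red difference was 0.050 against a highest value of 0.038 in the other 8.

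The number of gained tumors was the same in both groups, and over the whole stretch the group means differed by less than the SD within either group. The mean of the stretch was 0.15 ± 0.27 (SD, n = 6) in post-PHx and 0.051 ± 0.14 (SD, n = 6) in spontaneous tumors, a difference of 0.10. The medians were 0.012 and -0.0080, and the groups overlapped (-0.074 to 0.59 and -0.077 to 0.25), with PHx3M and PHx4M above every spontaneous tumor. The rest of chromosome 2 differed by -0.0038. By compartment the difference was 0.021 in A, 0.13 in B, 0.079 in C and 0.16 in D, with SDs of 0.19, 0.31, 0.29 and 0.28 in post-PHx and 0.11, 0.12, 0.19 and 0.13 in spontaneous tumors, so in B and D it exceeded the spontaneous SD but not the post-PHx SD. Without PHx4M the difference of the stretch was 0.014, and without PHx3M it was 0.050. The arrays stood on 3 slides, of which 1 held both groups, and on that slide (PHx5M, PHx6F, Spon5F and Spon6F) the direction was opposite, at -0.16. The other slides held 1 group each, so slide and group cannot be told apart there.

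In a fit across the genome (limma, Benjamini-Hochberg adjustment over all bins), 0 of the 40 bins of 1 Mb on distal chromosome 2 differed between the groups at an adjusted p of at most 0.05, and the smallest adjusted p of these bins was 0.915. Over the genome 0 of 2168 bins were called in either direction, a share of 0%. At an unadjusted p under 0.05 the counts were 0 of 40 on the stretch, and 104 higher (4.80%) and 18 lower (0.83%) in post-PHx tumors over the genome. By gene name the limma fit called 0 of 480 on the stretch (smallest adjusted p 0.987) and 0 of 20630 in all, again 0%. At an unadjusted p under 0.05, 9 gene names of the stretch were higher in post-PHx tumors and 0 were lower, against 602 (2.92%) and 263 (1.27%) of all. Under the alternatives the unadjusted counts of gene names on the stretch reached from 0 to 22 higher and from 0 to 1 lower. Among all gene names they reached from 339 to 915 higher and from 152 to 468 lower. For bins of the stretch the counts were 0 to 2 higher and 0 lower. Over the genome, bins reached from 18 to 198 higher and from 1 to 63 lower. The 9 included 2 of the named genes, Aurka at 0.096 in post-PHx against -0.14 in spontaneous tumors and Zfp217 at 0.29 against 0.012. Nothing is read from these counts, because the stretch was chosen on the same ratios.

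The methods of the study set an absolute mean of 0.4 as a filter for called regions, and here that value was also applied to 1 Mb bins. At 0.4 or above, PHx4M had 35 of 40 bins (87.5%) against 4.38% of all its bins. PHx3M had 19 (47.5%) against 4.94%, and Spon1M 13 (32.5%) against 6.96%. Spon5F had 0 of 40, and 0% of all its bins. Each of the other 8 tumors had 0 of 40 too, against 1.29% of all bins in PHx1M, 2.86% in PHx2F, 0% in PHx5M, 1.2% in PHx6F, 2.81% in Spon2M, 0.185% in Spon3F, 1.11% in Spon4F and 0.554% in Spon6F. At 0.25 or above, PHx3M had all 40 bins (6.96% of all its bins), PHx4M 36 (7.66%), Spon1M 20 (10.3%) and Spon5F 17 (2.21%), and of the other 8 tumors Spon2M alone had any, with 2. Without the isolated probes Spon2M had 0 such bins and Spon1M 21, and at 0.4 or above Spon1M had 15. No tumor had a bin of the stretch at -0.4 or below. Calling regions in each tumor by an error-weighted interval score (threshold 6, at least 2 probes, absolute mean at least 0.4) gave an amplified region on the stretch in 1 post-PHx tumor, PHx4M, and in 2 spontaneous ones. Over the genome the same rule gave 13 amplified regions in PHx4M (4.50% of its probes), 9 in PHx3M (3.40%), 40 in Spon1M (7.40%), 35 in Spon2M (0.543%) and 0 in Spon5F, and 143 deleted regions in Spon3F (1.93%). PHx4M had 1 region of 886 probes, from beyond Otor to Polr3k at the chromosome end. Spon1M had 6 regions with 457 probes over 18.5 Mb, with ends next to Pax1, Zfp341, Map1lc3a, Gdf5 and Prkcbp1, which were sites of isolated low probes. Spon2M had 2 regions of 3 probes each, at H13 (0.84) and at 2410003P15Rik and Gdf5 (1.53). On the stretch, deleted regions were called in Spon3F alone, 5 of them with 2 to 4 probes and means of -2.13 to -1.20, at Id1, Pxmp4, Map1lc3a, Ctcfl and Tmepai. With at least 5 probes in a region, 1 tumor of each group remained amplified and none was deleted. PHx3M lay just at the filter: it was not called, but was called on the same stretch with a score threshold of 8 or 10, a filter of 0.25, centring on the mode, bright probes alone or without the isolated probes. Without the isolated probes Spon1M had 2 regions (105 probes at 0.50 and 482 at 0.41), Spon2M 1 of 3 probes at H13, and Spon3F 4 deleted ones.

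Among the genes of C, 139 of 303 with values in all 4 gained tumors (45.9%) were at 0.25 or above in every one of them, against 0.878% of all gene names. In D it was 3 of 126 (2.38%), and 58 more were at 0.25 or above in 3 of the tumors. C and D were cut at the edges of these gains on the same ratios. Both counts follow from that choice and carry no test. Of the 30 genes named by role, 26 were measured, and 10 of the 20 with values in C were at 0.25 or above in all 4 gained tumors: Foxa2, Ahcy, E2f1, Mybl2, Tpx2, Rbl1, Src, Ncoa3, Stk4 and Dnmt3b. The value of a named gene rests on 1 to 5 probes. The share of all gene names at 0.25 or above was 10.4% in PHx3M, 12% in PHx4M, 11.3% in Spon5F and 12.6% in Spon1M, and for those of the stretch with a value it was 88.2%, 93.5%, 54.1% and 57.3%. At 0.4 or above were 248 of 474 gene names of the stretch in PHx3M (52.3%, against 5.85% of all), 425 of 480 in PHx4M (88.5%, against 6.17%), 105 of 479 in Spon5F (21.9%, against 2.69%) and 191 of 478 in Spon1M (40.0%, against 7.06%). The median over the gene names of the stretch was 0.40, 0.62, 0.27 and 0.33 in the 4 tumors, while the median over all gene names was 0.0016, 0.0028, 0.00062 and -0.0025.

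**Figure D5:**
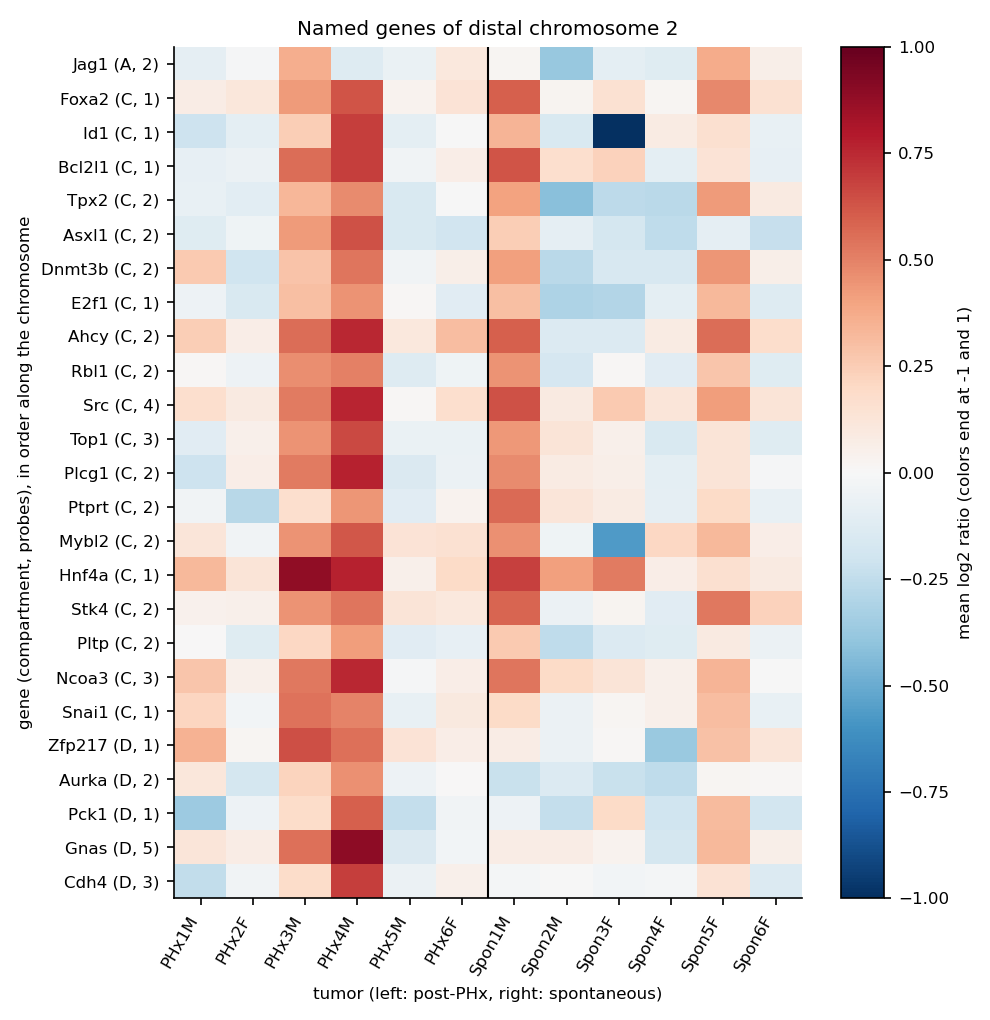
Mean log2 ratio (color, red above 0 and blue below) of 25 of the measured named genes (rows, in order along the chromosome, with compartment and number of probes) in the 12 tumors (columns, post-PHx left and spontaneous right of the line). The columns of PHx3M, PHx4M and Spon5F are red over nearly all rows from Foxa2 on, Spon1M is red in C and pale in D, and the dark cell is Id1 in Spon3F, at -1.68.

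Of the liver transcription factors and metabolic genes, 11 of 14 listed were measured, and 9, 11, 8 and 8 of them were at 0.25 or above in PHx3M, PHx4M, Spon5F and Spon1M (medians 0.43, 0.63, 0.32 and 0.35). Foxa2, a pioneer factor of liver genes with its only probe at chr2:147734393-147734449, was at 0.43, 0.63, 0.48 and 0.60 in these tumors. In the other 8 tumors it lay between 0.017 and 0.16, below all 4, but the tumors were split by their level on this stretch. Hnf4a, a regulator of hepatocyte differentiation with its only probe at chr2:163262880-163262939, was at 0.89, 0.77, 0.16 and 0.69, and the other 8 tumors reached from 0.051 to 0.52, so its values overlapped. After another background correction (normexp) Hnf4a was at 0.17, 0.31 and 0.33 in PHx3M, PHx4M and Spon1M. Ahcy, which breaks down S-adenosylhomocysteine, was at 0.56, 0.76, 0.56 and 0.60, and Pltp, a phospholipid transfer protein of plasma, at 0.21, 0.42, 0.091 and 0.26. Pck1, a key enzyme of gluconeogenesis that lies in D, was at 0.18, 0.59, 0.32 and -0.055, and at -0.37 to 0.19 in the other 8 tumors.

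Of the cell cycle, mitosis and DNA replication genes, 16 of 18 listed were measured, and 14, 16, 7 and 11 were at 0.25 or above in PHx3M, PHx4M, Spon5F and Spon1M (medians 0.39, 0.63, 0.15 and 0.41). E2f1, a transcription factor of the G1 to S transition, was at 0.30, 0.45, 0.32 and 0.30 in these 4 tumors. It was measured at chr2:154251069-154251125 alone and lay between -0.31 and 0.0092 in the other 8. The 4 and the 8 were split by their level on this stretch, so that gap carries no test. Mybl2, which drives genes of mitosis, was at 0.45, 0.62, 0.32 and 0.46, and Tpx2, a spindle assembly factor, at 0.34, 0.48, 0.42 and 0.40. Rbl1, a pocket protein that restrains E2F factors, was at 0.46, 0.51, 0.28 and 0.45, and Top1, the type I DNA topoisomerase, at 0.45, 0.66, 0.13 and 0.44. Aurka, a mitotic kinase that Tpx2 activates, lies in D and was at 0.23, 0.46, 0.017 and -0.22. Spon1M was thus high at Tpx2 and not at Aurka, on either side of the edge at 167 Mb.

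Of the oncogenes and growth signalling genes, 23 of 24 listed were measured, and 20, 19, 13 and 11 were at 0.25 or above in PHx3M, PHx4M, Spon5F and Spon1M (medians 0.44, 0.66, 0.29 and 0.19). Src, a tyrosine kinase measured by 4 probes at chr2:157127220-157145313, was at 0.52, 0.76, 0.42 and 0.63, and between 0.013 and 0.26 in the other 8 tumors. Plcg1, a phospholipase downstream of growth factor receptors, was at 0.52, 0.77, 0.13 and 0.48, and Ncoa3, a coactivator of nuclear receptors, at 0.53, 0.75, 0.34 and 0.53. Snai1, a repressor of epithelial genes near the end of C, was at 0.54, 0.50, 0.31 and 0.19. In D, Zfp217, a zinc finger factor, was at 0.64, 0.55, 0.29 and 0.074, and Gnas, the alpha subunit of the stimulatory G protein measured by 5 probes at chr2:173931487-173987704, at 0.55, 0.89, 0.33 and 0.073. With normexp correction Gnas was at 0.21 in PHx4M and Snai1 at 0.0033 in PHx3M. Jag1, in A, was at 0.37 in PHx3M and Spon5F and at -0.13 in PHx4M and 0.023 in Spon1M, which were not gained there. Id1, an inhibitor of differentiation factors with 1 probe, was at 0.25, 0.69, 0.16 and 0.34 in the gained tumors and at -1.68 in Spon3F, where its probe was part of a called region of 3 probes.

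Of the cell death regulators, 5 of 8 were measured, and 5, 5, 3 and 4 were at 0.25 or above in PHx3M, PHx4M, Spon5F and Spon1M. Bcl2l1, which encodes an inhibitor of apoptosis, was at 0.56, 0.69, 0.13 and 0.63 in these tumors and at -0.094 to 0.23 in the other 8. Stk4, a kinase of the Hippo pathway, was at 0.45, 0.54, 0.53 and 0.58. Of the genes listed as chromatin regulators, 9 of 10 were measured, and 9, 9, 4 and 5 were at 0.25 or above. These counts include Pofut1, which is not a chromatin regulator. Pofut1 was at 0.40, 0.64, 0.20 and 0.44 in PHx3M, PHx4M, Spon5F and Spon1M. Dnmt3b, a de novo DNA methyltransferase, was at 0.29, 0.54, 0.44 and 0.41, with PHx4M at 0.19 after normexp correction. Asxl1, a polycomb-associated regulator, was at 0.42, 0.63, -0.087 and 0.24. The only imprinted gene measured of 5 listed was Gnas.

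Of the very long genes, 7 of 8 were measured, and 5, 5, 3 and 3 were at 0.25 or above. Ptprt, a receptor phosphatase in C, was at 0.17, 0.44, 0.19 and 0.57 in PHx3M, PHx4M, Spon5F and Spon1M, and Cdh4, a cadherin in D, at 0.18, 0.69, 0.14 and -0.021. With normexp correction both were lower in PHx4M, at 0.10 for Ptprt and 0.15 for Cdh4. The secreted defence proteins (defensins, WAP domain proteins, cystatins and BPI fold proteins) form clusters in this part of the genome, and all 20 found by name were on the array. At 0.25 or above were 13 of 19 with a value in PHx3M, 19 of 20 in PHx4M, 11 of 20 in Spon5F and 16 of 19 in Spon1M (medians 0.36, 0.55, 0.28 and 0.44).

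The microRNAs were read through the probes of the genes around them, since none of the 14 was measured by a probe of its own. Around miR-499, the 4 probes at chr2:155266071-155349408, from Gss to Trpc4ap, averaged 0.49, 0.71, 0.21 and 0.36 in PHx3M, PHx4M, Spon5F and Spon1M, and -0.11 to 0.16 in the other 8 tumors. Around miR-7003 the 5 probes at chr2:162716835-162779288 averaged 0.45, 0.67, 0.24 and 0.42, and -0.17 to 0.20 in the other 8. Around miR-5622 the 7 probes at chr2:152517287-152614482 averaged 0.31, 0.44, 0.17 and 0.33, and -0.15 to 0.047 in the other 8. Around miR-296 the 8 probes at chr2:173756810-173987704 averaged 0.41, 0.78, 0.27 and 0.020, and -0.17 to 0.048 in the other 8. Around the first 3, which lie in C, all 4 gained tumors were above the other 8, but Spon5F was below 0.25 at each. All 4 gained tumors stood above the other 8 around 6 of the 7 hairpins in C. They did so around 0 of the 6 in D and of the 1 in A. These counts follow from how the compartments were cut on the same ratios, and they carry no test. The exception in C was miR-695, beside the isolated probe of Map1lc3a, with Spon1M at -0.088 and Spon2M at 0.41. Around miR-7005, in D, PHx1M (0.34) was above PHx3M (0.33) and Spon5F was at 0.068.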

How the data were processed

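Each of the 12 arrays (1 tumor each, on 3 slides) was taken as deposited by the authors, whose scanner software (Agilent Feature Extraction 10.5.1.1) had written, per spot, background-subtracted and dye-scaled signal intensities of both channels, a log10 ratio of tumor over non-tumor liver and an error of that ratio (type other). These ratios were converted to log2, without control spots or outlier-flagged spots, averaged per probe and centred on each array's autosomal median. Signal over background (array medians) reached from 7.07 to 25.9 in the green and from 3.80 to 11.9 in the red channel. Gain limits came from the best-fitting interval per tumor, with values held within ±0.8, and the 95% support limits of an edge from the likelihood of that fit. A tumor counted as gained where the interval lay at least 0.2 above the rest of the chromosome and held at least 50% of the stretch, a rule set after values were seen. The group comparison used 1 Mb bins and gene means over the genome (limma 3.58.1, R 4.3.3). limma and the region caller were tested on simulated data. Python 3.11.15 with numpy 2.4.6, pandas 2.3.3 and numba 0.67.0 did the rest. The members, the gene lists and the 30 named genes, fixed by role, were chosen with earlier results of these data known, and 1 of the named genes is counted but not reported here. Beside them the text names genes at the ends of called regions, isolated probes and the higher part of Spon1M. The names are those of the files, of which 361 of 480 matched RefSeq symbols or synonyms. The groups carry the same tumor numbers, but these name different mice. Alternatives were normexp (offset 50), no or mode centring, bright probes, medians, other starts, thresholds, filters, 5 Mb bins, terms for slide, sex and tumor number, and each tumor left out.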

Additional observations from a re-analysis of the deposited data

Results flagged for a closer look

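Within a group of 6, a tumor was singled out where its gap to the nearest other value as a share of the group's range was above Dixon's 95% critical value. Of 66 such comparisons, 7 were singled out. Chance alone would single out about 1 group in 20 of values not chosen beforehand, but the stretch and the edges of the compartments were chosen on these ratios, so the count is a description and no test. On chromosome 2 ahead of the stretch, PHx5M was low at -0.13, with the next post-PHx tumor at -0.020, and Spon5F was high at 0.13, with the next spontaneous tumor at -0.023. In compartment A, PHx3M was high at 0.38, with the next post-PHx tumor at -0.022, and Spon5F was high at 0.22, with the next spontaneous tumor at -0.028. In compartment D, Spon5F was high at 0.24, with the next at 0.0014. Of single genes, Id1 was at -1.68 in Spon3F against -0.15 in the next spontaneous tumor, and Asxl1 was at 0.24 in Spon1M against -0.087 in the next. The values of PHx3M, Spon5F and Spon1M are those of their gains, and that of Id1 is 1 probe.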

How the results depend on the processing

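Of 829 values computed under an alternative, 799 stayed within the spread between tumors or within 1.5 times the count. The mean of the stretch in each tumor stayed so under all 8 alternatives, 1 of which (without the 14 isolated probes) was chosen after seeing the data. The difference between the group means was reversed, at -0.16, on the slide that held both groups, and leaving out 1 tumor gave 0.014 (without PHx4M) to 0.15 (without PHx5M). The limma counts were 0 under every alternative, on the stretch and over the genome, with smallest adjusted p-values on the stretch of 0.624 to 0.999 for bins and 0.789 to 1 for gene names. With the tumor number as a replicate block the counts were 0 too (smallest adjusted p on the stretch 0.949 for bins and 0.967 for gene names). The numbers do not pair the tumors: the deviations of same-numbered tumors correlated at -0.14 to 0.40. The number of post-PHx tumors with an amplified region was 2 in place of 1 with score thresholds of 8 and 10, a filter of 0.25, mode centring, bright probes alone and without the isolated probes, and 0 (without PHx4M) to 1 when 1 tumor was left out. For spontaneous tumors it was 0 in place of 2 at a threshold of 10, 1 with at least 5 probes, 3 at a filter of 0.25 (with Spon3F), and 1 (without Spon1M or Spon2M) to 2 when 1 tumor was left out. Spontaneous tumors with a deleted region were 2 in place of 1 at a filter of 0.25, 0 at a threshold of 10 or with at least 5 probes, and 0 (without Spon3F) to 1 when 1 tumor was left out. The share of bins of the stretch past the filter was 100% in PHx3M, 42.5% in Spon5F and 50% in Spon1M at a filter of 0.25, and 0% in PHx3M and 2.5% in Spon1M at 0.6. Of 416 values of named genes in the gained tumors, 9 moved by more than the spread, all with normexp. The cause was not tested. No probe lies between 174800944 and 178071516, a gap of 3.27 Mb.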
